A study of Mus musculus with 17 samples.

Results

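The 10 genes linked to neutrophils that are followed here in AB12 tumors were S100a8, S100a9, Csf3r, Cxcr2, Retnlg, Clec4d, Clec4e, Cxcl1, Cxcl2 and Lcn2. They were picked by symbol with earlier results of these data known, and all 10 were found among the 55450 genes of the count table and passed the filter on low counts in every comparison. AB12 is a mouse mesothelioma cell line, and tumors grew after AB12 cells were injected into the peritoneum of 8-week-old BALB/c mice. RNA of whole tumors was sequenced in 17 libraries, from untreated mice on day 6 (d6, n = 3), day 10 (d10, n = 5) and day 14 (d14, n = 3), and from mice given anti CTLA-4 (clone 9D9, 200 µg an injection into the peritoneum) on d10 (n = 3) and d14 (n = 3). The treatment schedule was a pair of injections a week. Mice of the treated d14 tumors were injected on d6 and d10, and the days on which the treated d10 mice were injected were not given in the sources used here. The comparisons ask how these genes differ between the early, intermediate and advanced phases of tumor growth and after blockade of CTLA-4. All tumors carry the same cell line in a host with an intact immune system, and the tumor was not separated from the infiltrating cells. The libraries are taken as separate tumors, from at least 3 independent mice a group per the methods of the study. Whether the 5 untreated d10 libraries came from 5 mice was not stated, and p-values measure the spread between libraries.

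Neutrophils are short-lived phagocytes that leave the bone marrow under the growth factor G-CSF and follow chemokines into inflamed tissue. CXCL1 and CXCL2 bind the receptor CXCR2 on neutrophils and draw them in, and S100A8 and S100A9 pair to form calprotectin, a protein that fills the neutrophil cytosol. In tumors, neutrophils and related myeloid cells can restrain T cells or harm tumor cells. Several of the 10 genes are not restricted to neutrophils: activated macrophages also express Clec4d, Clec4e and Cxcl2, and epithelial and mesenchymal cells can express Cxcl1, Cxcl2 and Lcn2.

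Some of the genes are neighbours on the mouse genome (GRCm38, Gencode vM21). S100a8 (chr3:90668978-90670035, plus strand) and S100a9 (chr3:90692632-90695721, minus strand) lie 22596 bases apart. Cxcl1 (chr5:90891241-90893115) and Cxcl2 (chr5:90903871-90905938), both on the plus strand, are separated by 10755 bases. Clec4d (chr6:123262111-123275265, plus strand) and Clec4e (chr6:123281789-123289870, minus strand) are 6523 bases apart. The exons of none of the 10 genes overlap those of another annotated gene. The 250 bases before the RefSeq start of 2 of these pairs (GRCm38.p6) are shown because their members behaved differently across the tumors: S100a8 and S100a9 varied together closely, and Cxcl1 and Cxcl2 less so. Capitals mark the match to the NF-kappaB consensus in the Cxcl promoters and to the C/EBP motif TTNNGNAA in the S100a promoters, on either strand of the window. Both stretches marked in S100a9 match as the reverse complement. The windows are chr5:90890995-90891244 for Cxcl1, chr5:90903649-90903898 for Cxcl2, chr3:90668821-90669070 for S100a8 and, on the minus strand, chr3:90695722-90695971 for S100a9.
Cxcl1: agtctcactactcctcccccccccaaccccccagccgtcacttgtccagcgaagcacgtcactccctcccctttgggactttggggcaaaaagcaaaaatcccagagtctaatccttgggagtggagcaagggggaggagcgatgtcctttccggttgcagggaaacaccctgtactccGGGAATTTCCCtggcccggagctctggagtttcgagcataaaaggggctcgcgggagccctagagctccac
Cxcl2: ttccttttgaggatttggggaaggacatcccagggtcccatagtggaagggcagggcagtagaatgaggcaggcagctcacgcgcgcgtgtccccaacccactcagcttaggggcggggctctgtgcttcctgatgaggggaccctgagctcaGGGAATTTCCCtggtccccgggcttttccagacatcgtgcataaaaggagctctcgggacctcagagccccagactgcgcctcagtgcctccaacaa
S100a8: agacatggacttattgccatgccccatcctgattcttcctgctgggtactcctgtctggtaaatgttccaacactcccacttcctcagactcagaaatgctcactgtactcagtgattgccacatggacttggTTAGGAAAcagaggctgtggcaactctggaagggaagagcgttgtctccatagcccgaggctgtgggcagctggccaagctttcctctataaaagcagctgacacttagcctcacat
S100a9: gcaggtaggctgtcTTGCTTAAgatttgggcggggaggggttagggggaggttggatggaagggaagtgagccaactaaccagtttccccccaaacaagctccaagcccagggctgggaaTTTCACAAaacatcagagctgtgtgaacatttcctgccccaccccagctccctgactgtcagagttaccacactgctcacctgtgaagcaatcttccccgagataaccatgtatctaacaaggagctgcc

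Cxcl1 and Cxcl2 both held GGGAATTTCC, a match to the NF-kappaB consensus on either strand with 9 of 10 bases shared between the strands, starting 71 bases before the start of Cxcl1 and 97 bases before that of Cxcl2. In windows reaching 250 bases before to 50 bases after the start, searched on both strands, the NF-kappaB consensus was found in 8.46% of 32851 RefSeq windows and in 3 of the 10 genes, namely Csf3r, Cxcl1 and Cxcl2. The C/EBP motif was found in 40.7% of all windows and in 7 of the 10, and the PU.1 motif GAGGAA in 28.3% of all windows and in 7 of the 10. The AP-1 motif TGANTCA, present in 7.81% of all windows, was in none of the 10. These matches describe the letters of the windows and are no measure of binding.

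Libraries held between 46371577 and 96759833 counts (median 72413343). The following features of the libraries ran alongside the groups. Reads of the microRNA gene Mir6236 numbered 3387 to 12332 in the d6 tumors and in replicates 1 to 3 of untreated d10, 141 to 1244 in untreated d10 replicates 4 and 5 and in the treated d10 tumors, and 5 to 24 in all d14 tumors. The libraries were sequenced on a NextSeq500 or a NovaSeq6000 per the methods, and which library ran on which was not given in the sources used here. The study set aside genes that differed between sequencing projects, whereas the counts of all genes were used here. The Mir6236 split and the day cannot be told apart when d14 is compared with earlier days, whereas treated and untreated d14 tumors were alike in it. At d10 the split ran partly with treatment, since all treated tumors fell with untreated replicates 4 and 5 and apart from replicates 1 to 3. Treatment at d10, and any difference between the treatment effects of the 2 days, therefore cannot be fully told apart from the split. The summed level of 10 pancreatic acinar genes was 3980 and 1340 normalized CPM (counts scaled to library size) in treated d14 replicates 1 and 3, 4.27 in replicate 2, and at most 2.45 in every other library, and values of the 10 genes are therefore also given without those 2 libraries.

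As a check of the name, the levels of neutrophil markers differed widely from gene to gene. Mmp9 lay between 39.5 and 333 normalized CPM, Mmp8 between 1.36 and 14.0 and Camp between 0.0667 and 16.1. Ly6g, the surface antigen that defines mouse neutrophils, lay between 0.723 and 3.34 normalized CPM in the 17 libraries, and it passed the test in no comparison. Ngp, a protein of secondary granules, ranged from 0.111 to 71.7 normalized CPM. Cxcr1 reached at most 14 counts in a library and Trem1 was listed at 0 in all 17. In RPKM (reads per kilobase of exon, scaled to library size), the scale on which genes can be set side by side, the mean over the 17 libraries was 72.4 for S100a9, 34.5 for S100a8, 34.5 for Retnlg and 32.2 for Clec4d. It was 18.1 for Lcn2, 12.3 for Clec4e, 10.1 for Cxcl1, 8.82 for Csf3r, 7.46 for Cxcl2 and 3.71 for Cxcr2.

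The 10 genes did not move as a unit. Retnlg, Cxcr2 and Cxcl1 were highest in d6 tumors, Clec4d was lowest there, and Csf3r, Clec4d, Clec4e and Retnlg were higher in treated than in untreated d14 tumors. S100a8, S100a9, Cxcl2 and Lcn2 were called in no comparison. In whole tumor RNA, fewer cells of a type and less RNA per cell cannot be told apart. A gene was called when edgeR's quasi-likelihood test gave a Benjamini-Hochberg adjusted p below 0.05 over all genes tested and the log2 fold change exceeded 1 in size.

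**Figure D1:**
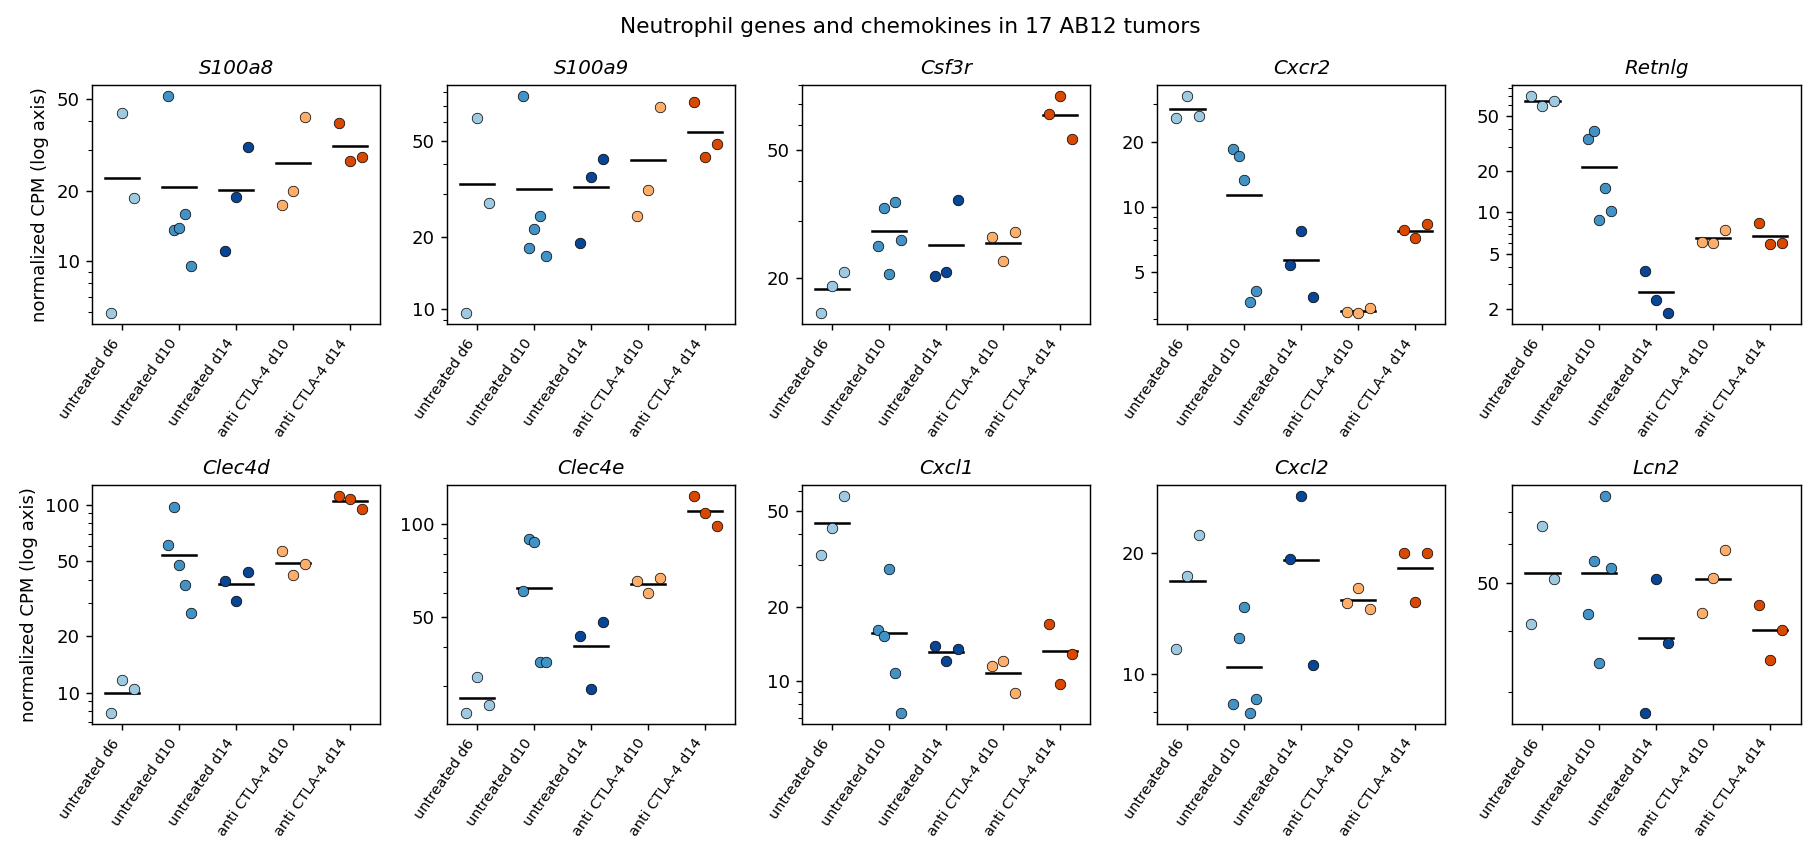
Normalized CPM of each of the 10 genes on a log axis, with a point for each tumor and a line at the group mean. Csf3r, Clec4d and Clec4e have all 3 treated d14 tumors above all 3 untreated d14 tumors, Retnlg and Cxcl1 have the 3 d6 tumors above all others, and the S100a8 and S100a9 points spread widely within each untreated group.

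In untreated tumors, 4 of the 10 genes were called between d6 and d10 against 7.45% of all genes tested, 2 of them higher at d10 (Clec4d and Clec4e) and 2 lower (Retnlg and Cxcl1). Only Retnlg was called between d10 and d14, lower at d14, where the share of all genes was 7.23%. Between d6 and d14, 4 were called against 19.0% of all genes: Clec4d higher, and Cxcr2, Retnlg and Cxcl1 lower. The d6 to d10 count fell to 2, 1 and 1 when d6 replicate 1, 2 or 3 was left out, with Clec4d the gene called each time, whereas the d6 to d14 count stayed at 4 without any single library. Over all genes those 3 d6 to d10 fits called 810, 967 and 819, against 1257 in the main fit. The d10 to d14 count was 0 without untreated d14 replicate 2, and 2 without untreated d10 replicate 3 or without untreated d14 replicate 3. In that order these fits called 281, 1528 and 1194 of all genes, against 1277 in the main fit.

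Under anti CTLA-4, none of the 10 genes was called at d10 by edgeR, which called 0.0174% of all genes, although 3 of the 10 had an unadjusted p below 0.05 in edgeR. DESeq2 called none of the 10 either, and 244 of 31586 genes in all. At d14, 4 of the 10 were called against 11.5% of all genes, all 4 higher in treated tumors (Csf3r, Retnlg, Clec4d and Clec4e). From d10 to d14 of treatment, 3 were called against 11.5% of all genes, all higher at d14 (Csf3r, Cxcr2 and Clec4d). The treatment effect itself differed between d14 and d10, by an interaction term, for 5 of the 10 against 11.8% of all genes, and for all 5 it was the more positive at d14. The interaction count was 2 or 3 without untreated d10 replicate 2, without any single treated d10 tumor, without untreated d14 replicate 1 or 2 or without treated d14 replicate 1 or 2. Those fits called 1315 to 1841 of all genes, against 2196 in the main fit. With untreated d10 replicates 4 and 5 alone the interaction count was 2 (Csf3r and Retnlg), where 2466 of 19253 genes were called. The comparisons share groups, so these counts are not independent of each other. With treated d14 replicate 2 as the lone treated d14 tumor, the 4 log2 fold changes at d14 were between 1.19 and 1.58. That fit took the lone tumor to vary like the other samples, and calls from it are not read here.

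**Figure D2:**
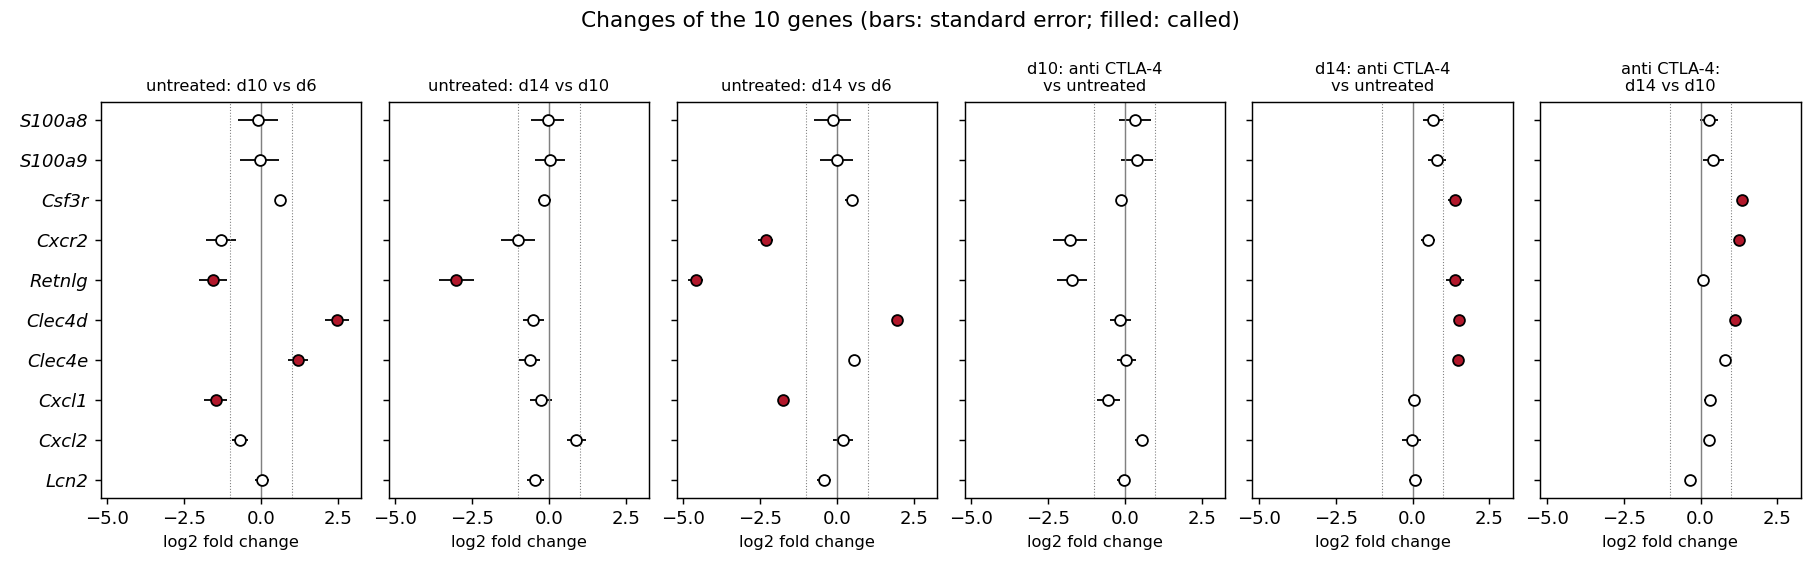
Log2 fold changes of the 10 genes in the 6 comparisons between groups, first named group minus second, with bars of 1 standard error, filled points for called genes and dotted lines at a log2 fold change of 1 in either direction. Filled points for Retnlg, Cxcr2 and Cxcl1 lie to the left in the untreated time course, and those for Csf3r, Retnlg, Clec4d and Clec4e to the right at d14 of treatment.

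S100a8 and S100a9 varied from tumor to tumor more than between groups. In untreated d6 tumors S100a9 was at 9.61, 62.1 and 27.6 normalized CPM in replicates 1 to 3. In untreated d10 tumors it was at 77.2, 17.9, 21.6, 24.4 and 16.6, and in untreated d14 tumors at 18.9, 35.5 and 42.3. Treated tumors held 24.4, 31.3 and 69.2 normalized CPM of S100a9 at d10 and 72.5, 43.1 and 48.4 at d14. The lowest and the highest S100a9 values of all 17 libraries thus both came from untreated tumors, and the ranges of all groups overlapped except those of treated and untreated d14. S100a8, its partner in calprotectin, followed the same tumors, at 5.96, 43.5 and 18.7 normalized CPM in untreated d6 and at 51.6, 13.6, 13.9, 15.9 and 9.54 in untreated d10. It was at 11, 18.8 and 31.1 in untreated d14, at 17.4, 20.1 and 41.8 in treated d10 and at 39.4, 26.9 and 28.1 in treated d14. Untreated d10 replicate 1 stood far above the other 4 tumors of its group for both genes. Per length, S100a9 exceeded S100a8 by 1.75 to 2.51 times in every library, with a median of 2.07.

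Neither gene was called in any comparison, and the standard errors were wide. For S100a9 the log2 fold change was -0.05 (standard error 0.62, edgeR adjusted p = 0.97) from d6 to d10 and 0.03 (0.50, adjusted p = 0.97) from d10 to d14 in untreated tumors. The largest estimate was that of treatment at d14, 0.80 for S100a9 (standard error 0.30, adjusted p = 0.072) and 0.67 for S100a8 (standard error 0.33, adjusted p = 0.16). Without untreated d14 replicate 3 both were called, at 1.07 for S100a9 (edgeR adjusted p = 0.03) and 1.14 for S100a8 (adjusted p = 0.015). The 4 protein coding genes whose log2 CPM were most like those of S100a9 over the 17 libraries were Ltf, Ngp, Camp and Cd177 (Pearson's r = 0.88, 0.88, 0.87 and 0.79, among 12369 genes). All 4 encode granule or surface proteins of neutrophils, and the values were nearly the same for deviations from the group means (0.87, 0.88, 0.87 and 0.82). Ngp alone ran from 0.111 normalized CPM in untreated d6 replicate 1, the tumor with the least S100a9, to 71.7 in a treated d10 tumor.

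**Figure D3:**
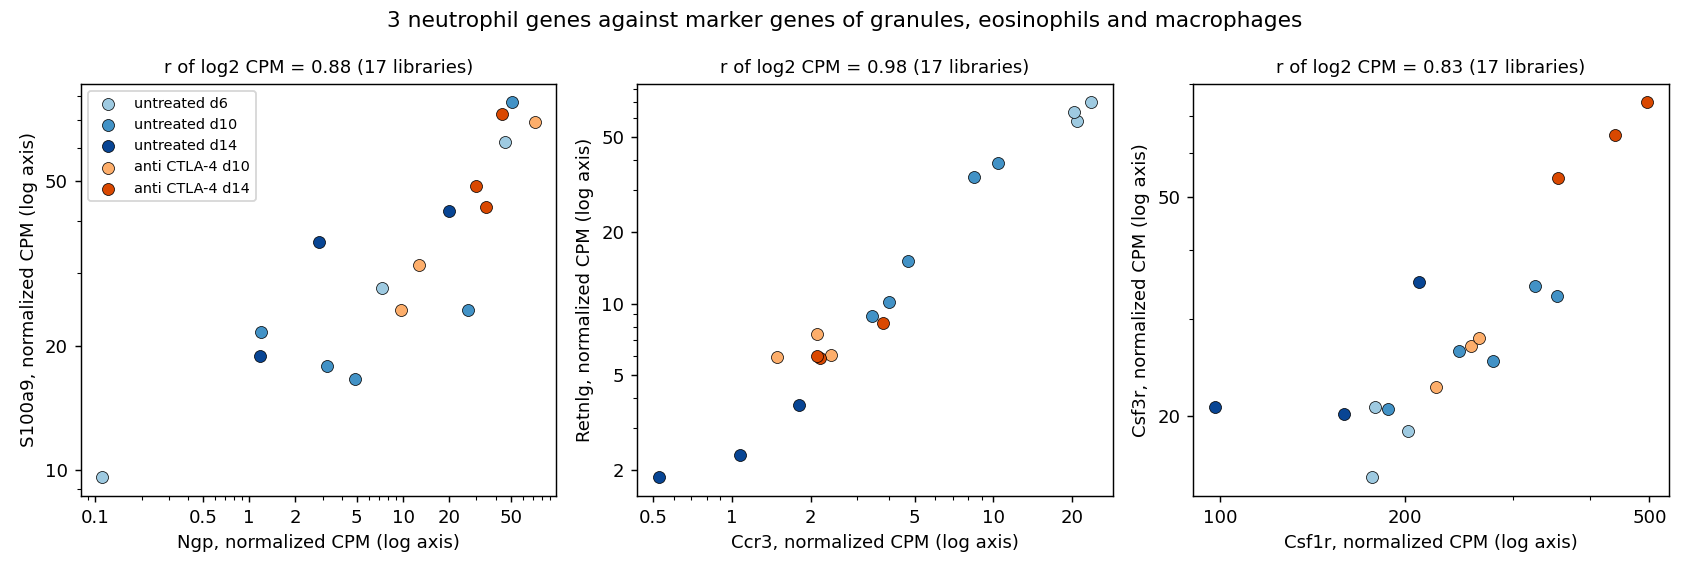
Normalized CPM of S100a9 against Ngp, Retnlg against Ccr3 and Csf3r against Csf1r on log axes, with a point for each of the 17 tumors coloured by group. S100a9 and Ngp rise together across tumors of every group (r = 0.88), Retnlg and Ccr3 fall together from d6 to d14 in untreated tumors (r = 0.98), and the 3 treated d14 tumors have the highest Csf3r and the 3 highest Csf1r levels (r = 0.83).

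Csf3r, the receptor for G-CSF, was higher in treated d14 tumors than in any other tumor. It was at 15.5, 18.8 and 20.8 normalized CPM in untreated d6, at 25.2, 33.0, 20.6, 34.5 and 26.3 in untreated d10 and at 20.2, 20.8 and 35.1 in untreated d14. Treated d10 tumors held 26.8, 22.6 and 27.7, within the untreated d10 range. Treated d14 tumors held 64.8, 74.1 and 54.1, above every other library. The log2 fold change of treatment at d14 was 1.38 (standard error 0.22, edgeR adjusted p = 0.0067), that from d10 to d14 of treatment was 1.34 (0.12, adjusted p = 0.00033), and the treatment effect at d14 exceeded that at d10 by 1.48 (0.30, adjusted p = 0.0061). In untreated tumors the level at d10 differed from that at d6 by 0.63 (standard error 0.18, adjusted p = 0.038), under the fold threshold. Csf3r was at its highest, 74.1, in treated d14 replicate 2, where the acinar sum was 4.27 normalized CPM. Csf3, which encodes its ligand G-CSF, lay between 0.289 and 1.28 normalized CPM and was called in no comparison.

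Macrophage markers were also higher with treatment at d14, but their sum followed Csf3r only loosely over all libraries. Of 12 macrophage and monocyte markers, 7 were called higher in treated than in untreated d14 tumors and none lower, against 11.5% of all genes called in either direction, with a median log2 fold change of 1.08 against 0.00 over all genes tested. Their summed level was 870 to 1270 normalized CPM in untreated d14 and 1930 to 2400 in treated d14 tumors, while it was 1820 to 1960 in untreated d6, 1860 to 2930 in untreated d10 and 1650 to 1920 in treated d10. Csf1r, the receptor of macrophages for CSF-1 and a gene picked here after its values were seen, had a log2 fold change of 1.5 at d14 (edgeR adjusted p = 0.0078). From d10 to d14 of treatment, where Csf3r was called, none of the 12 markers was (median 0.30). Over the 17 libraries Csf3r had r = 0.40 with the summed level of the 12 markers (0.67 for deviations from the group means). It had r = 0.58 with the sum of granule genes and 0.72 with that of fibroblast and endothelial markers (0.21 and 0.44 for deviations). The part of macrophages in the values of Csf3r, Clec4d and Clec4e was not tested.

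Cxcr2, the neutrophil receptor for CXCL1 and CXCL2, fell from d6 to d14. It was at 26.0, 32.8 and 26.5 normalized CPM in untreated d6, at 18.6, 17.3, 13.3, 3.63 and 4.07 in untreated d10 and at 5.37, 7.70 and 3.83 in untreated d14. Every d6 tumor lay above every later tumor, and untreated d10 replicates 4 and 5 lay apart from replicates 1 to 3, as they did in Mir6236 reads. The log2 fold change from d6 to d14 was -2.32 (standard error 0.24, edgeR adjusted p = 0.00013). From d6 to d10 it was -1.30 (0.49, adjusted p = 0.098), but -0.77 with untreated d10 replicates 1 to 3 alone and -2.87, then called, with replicates 4 and 5 alone. Treated tumors held 3.26, 3.21 and 3.39 normalized CPM at d10 and 7.80, 7.18 and 8.28 at d14, 2 groups that did not overlap. The rise from d10 to d14 of treatment was 1.25 (standard error 0.12, adjusted p = 0.00033). It was at least 1.13 under every alternative, and it was not called when all 5 groups shared a fit (adjusted p = 0.067). The difference of the treatment effects, 2.27 (0.69, adjusted p = 0.037), was 0.72 and no longer called with untreated d10 replicates 4 and 5 alone. That call was also lost without any single treated d10, untreated d14 or treated d14 tumor, and without untreated d10 replicate 1 or 2. Treatment at d10 gave -1.79 (0.55, adjusted p = 0.27), with every treated d10 tumor below every untreated one, and this was -2.31 and called against replicates 1 to 3 but -0.24 against replicates 4 and 5. Against replicates 1 to 3, 1152 of 16963 genes were called in all. Treatment at d14 gave 0.50 (0.23, adjusted p = 0.14). Genes most like Cxcr2 over the 17 libraries were Dnajc7, F5, Apol7c and Emc2 (r = 0.94, 0.94, 0.93 and 0.93), none of them a neutrophil marker among the lists used here.

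Retnlg, which encodes a secreted resistin-like protein of neutrophils, showed the widest range of the 10, 37.6 times from the lowest to the highest library. It was at 70.0, 58.7 and 63.8 normalized CPM in untreated d6, at 34.1, 39.0, 8.83, 15.1 and 10.2 in untreated d10 and at 3.75, 2.32 and 1.86 in untreated d14. The 3 groups did not overlap. The log2 fold change was -1.56 (standard error 0.45, edgeR adjusted p = 0.038) from d6 to d10, -3.01 (0.57, adjusted p = 0.01) from d10 to d14 and -4.59 (0.24, adjusted p = 1.4e-05) from d6 to d14. The d6 to d10 call was lost without any single d6 tumor or without untreated d10 replicate 4 or 5, with the adjusted p at most 0.13. The d10 to d14 call was lost without untreated d14 replicate 2 (adjusted p at most 0.059).

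Treated tumors held 6.08, 5.99 and 7.42 normalized CPM of Retnlg at d10 and 8.31, 5.89 and 6.02 at d14. The level thus did not differ detectably between treated d10 and d14 (log2 fold change 0.07, standard error 0.16, edgeR adjusted p = 0.74), and the untreated d14 tumors lay below both. Treatment gave 1.38 at d14 (0.29, adjusted p = 0.012) and -1.72 at d10 (0.50, adjusted p = 0.25), and the difference of the effects was 3.09 (0.66, adjusted p = 0.0082). The d10 estimate was -2.06 and called against untreated d10 replicates 1 to 3, where 1152 of 16963 genes were called in all. Against replicates 4 and 5 it was -0.97 and not called.

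The patterns closest to that of Retnlg included those of eosinophil genes. The most similar genes, picked after their values were seen, were Ccr3, the eotaxin receptor of eosinophils, with r = 0.98, and Siglecf, a lectin of eosinophils and some macrophages, with r = 0.97 over the 17 libraries (0.89 and 0.84 for deviations from the group means). Gapt and Scimp, which are in none of the lists used here, also had r = 0.97 (0.86 and 0.77 for deviations). Ccr3 lay at 20.4 to 23.6 normalized CPM in untreated d6, 3.43 to 10.4 in untreated d10 and 0.524 to 1.80 in untreated d14, with a log2 fold change of -4.25 from d6 to d14 (edgeR adjusted p = 6.8e-05). The 10 eosinophil, basophil and mast cell markers summed to 39.8 to 43.7 normalized CPM in untreated d6, 20 to 36.5 in untreated d10 and 10.7 to 23.4 in untreated d14. Of these markers 4 of the 8 tested were called lower at d14 than at d6 and none higher, where 19.0% of all genes were called, and the other 4 had estimates above 0. From d6 to d10, 3 of 9 were called lower and 2 higher, the mast cell proteases Cma1 (1.28) and Mcpt4 (1.24), against 7.45% of all genes. The part of eosinophils in the values of Retnlg was not tested.

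Clec4d and Clec4e encode C-type lectin receptors (MCL and Mincle) that sense mycobacterial glycolipids and, for Mincle, products of dying cells. Clec4d was at 7.81, 11.6 and 10.4 normalized CPM in untreated d6, at 61.1, 97.7, 47.7, 37.4 and 26.6 in untreated d10 and at 39.2, 30.6 and 43.9 in untreated d14. All d6 tumors lay below all later tumors. The log2 fold change was 2.47 (standard error 0.40, edgeR adjusted p = 0.0031) from d6 to d10 and 1.95 (0.17, adjusted p = 6.7e-05) from d6 to d14, and it was called under every alternative run. From d10 to d14 it was -0.51 (0.35, adjusted p = 0.32). Treated tumors held 56.5, 42.4 and 48.1 at d10, within the untreated d10 range, and 112, 107 and 95.0 at d14, above every other treated tumor and every untreated d14 tumor. Treatment gave 1.5 at d14 (0.14, adjusted p = 0.0036) and -0.14 at d10 (0.35, adjusted p = 0.87), and the effects differed by 1.62 (0.45, adjusted p = 0.025). The call of that difference was lost without treated d10 replicate 2 or 3. It was also lost without replicate 1 or 2 of either d14 group. With untreated d10 replicates 4 and 5 alone the difference was 0.88 and not called. Within treated tumors the d14 level exceeded that at d10 by 1.11 (0.12, adjusted p = 0.00039).

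Clec4e rose less in untreated tumors. It was at 24.5, 31.9 and 25.9 normalized CPM in untreated d6, at 60.7, 89.7, 87.9, 35.8 and 35.9 in untreated d10 and at 43.6, 29.2 and 48.3 in untreated d14. The d6 and d10 ranges did not overlap, while those of d6 and d14 did. The log2 fold change from d6 to d10 was 1.20 (standard error 0.33, edgeR adjusted p = 0.034). It was 1.56 with untreated d10 replicates 1 to 3 alone and 0.40, no longer called, with replicates 4 and 5 alone, and the call was also lost without any single d6 tumor or without untreated d10 replicate 1 or 2 (adjusted p at most 0.14). Treated tumors held 65.3, 59.8 and 67.1 at d10 and 124, 109 and 99.1 at d14, and all treated d14 tumors were above every other library. Treatment gave 1.49 at d14 (0.19, adjusted p = 0.0049) and 0.05 at d10 (0.31, adjusted p = 0.96). The effects differed by 1.43 (0.43, adjusted p = 0.034), a value that was 0.65 and not called with untreated d10 replicates 4 and 5 alone. That call was also lost without any single treated d10 tumor and without untreated d10 replicate 2. It was lost as well without replicate 1 or 2 of either d14 group. Per length, the level of Clec4e was 0.805 to 1.01 times that of Clec4d in untreated d6 and 0.296 to 0.593 times that of Clec4d in all other tumors.

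Cxcl1, a chemokine for CXCR2, was highest at d6. It was at 33.0, 42.6 and 57.7 normalized CPM in untreated d6, at 16.1, 15.3, 28.8, 10.8 and 7.38 in untreated d10 and at 13.9, 12.1 and 13.5 in untreated d14. No later tumor reached the d6 range. The log2 fold change was -1.48 (standard error 0.37, edgeR adjusted p = 0.023) from d6 to d10, -1.74 (0.18, adjusted p = 0.00014) from d6 to d14 and -0.25 (0.36, adjusted p = 0.64) from d10 to d14. The d6 to d10 call was lost without d6 replicate 2 or 3 (adjusted p at most 0.11). Treated tumors held 11.5, 12.0 and 8.91 at d10 and 17.1, 9.71 and 12.9 at d14, within the untreated ranges of the same days at d10 and spread around them at d14. Treatment gave -0.54 (0.37, adjusted p = 0.53) at d10 and 0.04 (0.19, adjusted p = 0.9) at d14. The patterns most like that of Cxcl1 were those of Casp4, Ifi202b, Stxbp3 and Snx2 (r = 0.94, 0.93, 0.93 and 0.93).

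Cxcl2, the neighbour of Cxcl1 with the same receptor, did not share the d6 peak. It was at 11.5, 17.5 and 22.2 normalized CPM in untreated d6, at 8.39, 12.3, 14.7, 7.98 and 8.65 in untreated d10 and at 19.4, 27.9 and 10.5 in untreated d14. All 3 ranges overlapped. Treated tumors held 15.0, 16.4 and 14.5 at d10 and 20, 15.1 and 20.1 at d14. The largest estimate, 0.89 from d10 to d14 in untreated tumors, had a standard error of 0.31 and an edgeR adjusted p of 0.07, and it was called only without untreated d10 replicate 3 or without untreated d14 replicate 3. From d6 to d10 it was -0.69 (0.26, adjusted p = 0.098), called with untreated d10 replicates 4 and 5 alone at -1.02. Per length, the level of Cxcl1 was 2.69 to 3.17 times that of Cxcl2 in untreated d6, 0.941 to 2.16 times in untreated d10 and 0.479 to 1.42 times in untreated d14. In treated tumors that ratio was 0.678 to 0.847 at d10 and 0.707 to 0.941 at d14.

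Lcn2, which encodes lipocalin 2, an iron-scavenging protein of granules and of injured epithelium, was the steadiest of the 10, with 2.78 times between the lowest and the highest library. It was at 41.2, 65.3 and 50.9 normalized CPM in untreated d6, at 43.2, 55.4, 34.3, 75.5 and 53.6 in untreated d10 and at 27.2, 51.0 and 37.8 in untreated d14. Treated tumors held 43.4, 51.3 and 58.4 at d10 and 45.1, 34.9 and 40.2 at d14. All groups overlapped in these levels. Its lowest adjusted p from edgeR was 0.049, for a log2 fold change of -0.33 (standard error 0.12) from d10 to d14 of treatment, under the fold threshold. Over the 17 libraries its log2 CPM had r = 0.02 with the summed level of the 15 granule genes and r = 0.14 with S100a9, and its closest patterns were those of Det1, Lrrc28, B3galt6 and Ciapin1 (r = 0.87, 0.80, 0.80 and 0.80). The granule sum was led by Mmp9 and Chil3 (means of 129 and 45.6 normalized CPM), and S100a9 itself had only r = 0.47 with it.

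Among the 10 genes the closest likeness of log2 CPM over the 17 libraries was that of S100a8 and S100a9 (r = 0.98, and 0.99 for deviations from the group means). Clec4d and Clec4e came next with 0.91 (0.81 for deviations), followed by Cxcr2 and Cxcl1 with 0.84 (0.58). Cxcr2 and Retnlg had 0.78 (0.54). Cxcl1 and Cxcl2, in spite of their adjacent positions and shared promoter motif, had 0.28 (0.54). S100a9 had -0.05 with Cxcr2 and -0.18 with Retnlg (0.30 and 0.18 for deviations). Over the 17 libraries S100a9 thus did not give the same order of tumors as Cxcr2 or Retnlg. The values describe 17 libraries that share groups and days and carry no test.

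**Figure D4:**
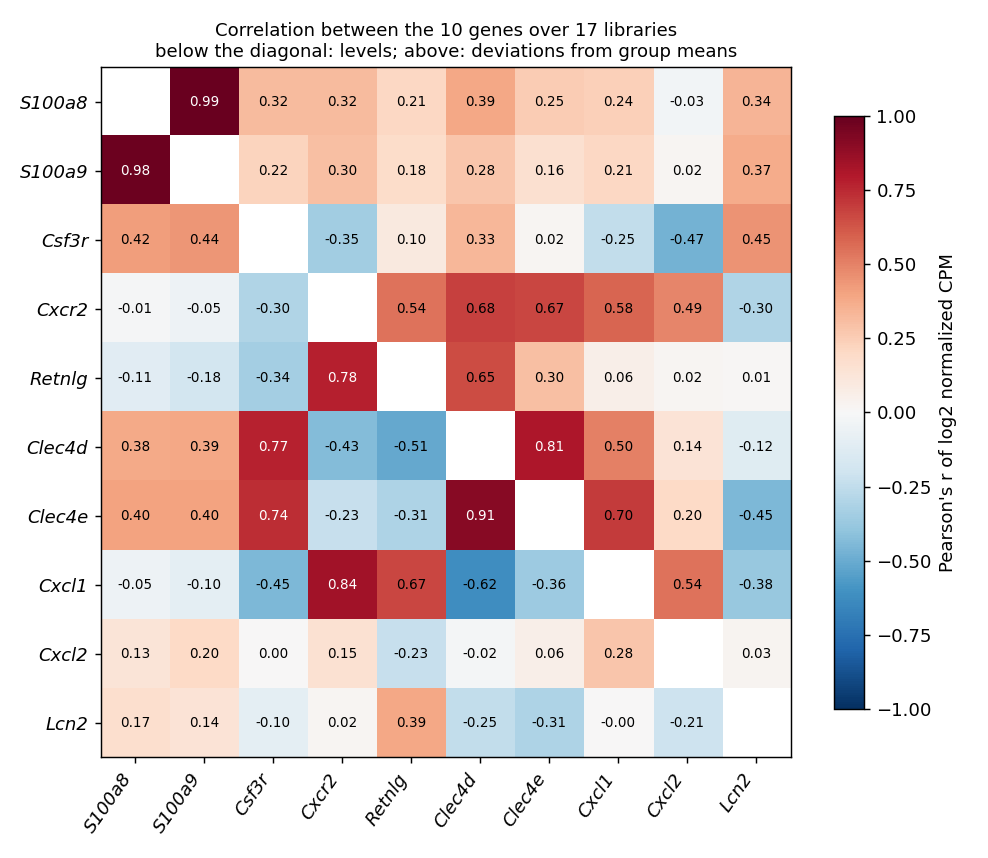
Pearson's r between the log2 normalized CPM of the 10 genes over 17 libraries, from levels below the diagonal and from deviations from the group means above it. The dark cells are S100a8 with S100a9 (0.98 and 0.99), Clec4d with Clec4e (0.91 and 0.81) and, among levels, Cxcr2 with Cxcl1 (0.84).

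Other neutrophil genes were read from 3 lists. Of 14 granule genes tested of 15, none was called from d6 to d10 in untreated tumors, against 7.45% of all genes, and the median log2 fold change was -0.08 against 0.03 over all genes. From d6 to d14, 1 was called higher and 2 lower: the collagenase Mmp8 (1.04), the protease Prtn3 (-1.51) and Pglyrp1, a peptidoglycan recognition protein (-1.22), near the 19.0% of all genes. From d10 to d14, 2 were called, both lower (Prtn3 at -1.04 and Pglyrp1 at -1.07), against 7.23% of all genes. Exons of Prtn3 overlap those of Plppr3 on the opposite strand, and whether counting used strand was not given. None was called under treatment at d10 (median 0.61 against -0.01 over all genes). At d14 of treatment 5 of 14 were called higher and none lower, where 11.5% of all genes were called in either direction, with a median of 1.61 against 0.00 over all genes. They were Mmp9 (log2 fold change 1.66, edgeR adjusted p = 0.012), a gelatinase that macrophages also make, Cd177 (1.52, adjusted p = 0.013), Ctsg (1.45, adjusted p = 0.016), Mmp8 (1.43, adjusted p = 0.0044) and Prtn3 (1.32, adjusted p = 0.029). Ngp had an estimate of 2.20 there and was not called (adjusted p = 0.08). From d10 to d14 of treatment 2 were called, both higher (Mmp9 at 1.05 and Mmp8 at 1.03), near the 11.5% of all genes. The treatment effects differed for 2 of 14, both more positive at d14 (Mmp9 by 2.32 and Prtn3 by 1.37), near the 11.8% of all genes. The 2 most abundant genes of the list were Mmp9 (39.5 to 333 normalized CPM) and Chil3 (4.12 to 186).

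Of 20 genes of mature neutrophils, 16 or 17 were tested in each comparison. From d6 to d10 in untreated tumors 3 were called lower and none higher: the interferon-responsive Slfn4 (-2.08), Ifitm6 (-1.26) and Padi4, the enzyme that citrullinates histones in neutrophil traps (-1.15), against 7.45% of all genes. From d6 to d14, 4 were called lower and none higher, among them Padi4 (-1.91), Ifitm6 (-1.86) and Wfdc21 (-1.53), a count of 16 tested that is close to the 19.0% of all genes. Slfn4 was the gene called from d10 to d14, higher at 2.21, which is 1 of 16 against 7.23% of all genes. None was called under treatment at d10, and 2 were called at d14, both higher: Mcemp1 (1.22) and the formyl peptide receptor Fpr1 (1.18). These 2 of 17 are near the 11.5% of all genes called. From d10 to d14 of treatment 1 of 17 was called, Slfn4 (1.04, higher), against 11.5% of all genes. The treatment effects differed for 2 of 17, Mcemp1 (1.63) and Hdc, the histamine-forming enzyme (1.03), near the 11.8% of all genes. The most abundant genes of the list were Acod1 (79.1 to 172 normalized CPM), which activated macrophages also express, and Slfn4 (4.35 to 93.5).

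Of 16 other neutrophil attractants and growth factors, 13 were tested. Cxcl5, a further ligand of CXCR2, had a log2 fold change of -1.43 from d6 to d10 (edgeR adjusted p = 0.025) and of -1.42 from d6 to d14 (adjusted p = 0.0046) in untreated tumors, as Cxcl1 fell, and of 1.18 from d10 to d14 of treatment (adjusted p = 0.00042). From d6 to d10, 2 of the 13 were called higher, Ccl4 (1.24) and Il1b (1.10), and 1 lower, Cxcl5. From d6 to d14, 2 were called higher, Ppbp (1.31) and Il1b (1.18), and 4 lower, among them Ackr1 (-2.40), Il6 (-1.58) and Cxcl5. None was called from d10 to d14 in untreated tumors or under treatment at d10. At d14 of treatment 3 were called higher and none lower, namely the cytokines Il1a (1.11) and Il6 (1.10) and the chemokine Ccl4 (1.09). From d10 to d14 of treatment 4 were called higher and none lower, among them Il1b (1.61), Ackr1 (1.29) and Il1a (1.25). The treatment effects were more positive at d14 for 4, among them Ackr1 (2.64), Il6 (1.59) and Il1a (1.58), and less positive for Ppbp (-1.40). These counts of 13 stand against 7.45% of all genes called from d6 to d10, 19.0% from d6 to d14, 11.5% in each of the treated d14 comparisons and 11.8% for the difference of the effects. The most abundant were Il1b (28.5 to 111 normalized CPM) and Ccl3 (16.6 to 60.9). Il17a, Il17f and Cxcl15 reached at most 4, 9 and 1 counts in a library, so that differences in them were not detectable at this depth.

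Markers of other cells moved with treatment at d14 as well. Beside the 7 of 12 macrophage markers, led in level by the complement genes C1qa (126 to 653 normalized CPM) and C1qb (97.4 to 522), those called higher in treated d14 tumors were 3 of 8 fibroblast and endothelial markers tested, 3 of 8 mesothelial and epithelial markers, 3 of 9 eosinophil, basophil and mast cell markers, 2 of 7 dendritic cell markers and 7 of 7 pancreatic acinar markers, and none of these lists held a gene called lower. The share of all genes called in this comparison was 11.5%. Of the 8 mesothelial and epithelial markers only 4 had an estimate above 0, and their summed level was 2770 to 2830 normalized CPM in untreated d14 and 1880 to 2100 in treated d14 tumors, without overlap. Krt8 was at a mean of 847 and 643 normalized CPM in these groups and Krt18 at 772 and 547, below the fold threshold. None of 6 red blood cell markers was called in any comparison, and Hbb-bs lay between 7.5 and 34.5 normalized CPM. Krt8, a keratin of the tumor cells, lay between 592 and 1310 normalized CPM and Col3a1, a fibroblast collagen, between 788 and 2340. The part of these cells in the values of the 10 genes was not tested.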

How the data were processed

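Libraries were made by the authors with a KAPA RNA HyperPrep kit, and reads were aligned to GRCm38 (mm10) with TopHat2 2.0.14 per the submitters' processing notes. HTSeq was used for counting on the Gencode vM21 annotation. The table the authors deposited holds raw counts per gene. Whether counting used strand was not given in the sources used here, and antisense reads may be included. The groups and replicate numbers come from the labels, and all 17 columns were mapped. The 10 genes, the 10 other lists of genes and the tests were chosen with earlier results of these data known. Genes were tested in R 4.3.3 with edgeR 4.0.16 (filterByExpr, TMM, quasi-likelihood test, only the groups compared in each fit), and called at a Benjamini-Hochberg adjusted p below 0.05 and a log2 fold change above 1 in size. The standard error of an estimate is its size over the square root of the F statistic. Levels are CPM with TMM over all 17 libraries, and RPKM uses the union of exons. Likeness is Pearson's r of log2 CPM with a prior count of 2, among protein coding genes with a mean of at least 1 CPM. All 10 genes are named, and of each list the genes called with the 3 largest changes in each direction and the 2 most abundant genes, with those near 0. DESeq2 1.42.0, other scalings, filters, a replicate block and leaving out libraries were alternatives. The steps were tested on simulated data. Depth was 46371577 to 96759833 counts a library, and replicates of a group differed by more than sampling noise in every pair. Promoters are RefSeq sequences of GRCm38.p6.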

Additional observations from a re-analysis of the deposited data

Results flagged for a closer look

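In untreated d10 tumors, replicate 1 lay far from the other 4 for S100a8 (51.6 normalized CPM, the next highest 15.9) and for S100a9 (77.2, the next highest 24.4), with gaps of 0.849 and 0.871 of the group's range against a critical value of 0.71. The 10 genes were each tested in this group, and chance flags about 1 in 20 such groups. By this measure no other gene of the 10 set a tumor of this group apart. By an interaction term in edgeR, the treatment effect was more positive at d14 than at d10 for Csf3r (1.48 on the log2 scale, adjusted p = 0.0061), Cxcr2 (2.27, adjusted p = 0.037), Retnlg (3.09, adjusted p = 0.0082), Clec4d (1.62, adjusted p = 0.025) and Clec4e (1.43, adjusted p = 0.034). The estimates of treatment had opposite signs on d10 and d14 for Csf3r, Cxcr2, Retnlg and Clec4d, and none at d10 was called. For Csf3r and Clec4d the d10 estimates, -0.12 (standard error 0.16) and -0.14 (0.35), were smaller than their standard errors, so their sign is not read. The 5 untreated d10 tumors enter each of these differences, and with replicates 4 and 5 alone the difference was 1.62 for Csf3r, 2.35 for Retnlg, 0.88 for Clec4d, 0.72 for Cxcr2 and 0.65 for Clec4e. Of 24 alternatives, 13 lost the call of Cxcr2, 10 that of Clec4e, 8 that of Clec4d and 1 that of Retnlg. Csf3r kept its call under all 24.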

How the results depend on the processing

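No value of a called gene changed direction under any alternative. Of 1160 values of the 10 genes under the alternatives, 1011 kept direction and side of the threshold, 51 lost and 13 gained the call, and 85 changed sign, all of them uncalled. DESeq2, library size without TMM, no filter on low counts, at least 10 counts in every library and protein coding genes alone left each count of called genes unchanged, as did a fit of all 5 groups except for 5 called from d6 to d10 and 2 in treated d14 against d10. Over all genes the fit of all 5 groups called 1679 and 1609 of 18843 there. Leaving out each library gave counts of 1 to 4 in untreated d10 against d6, 0 to 2 in untreated d14 against d10, 4 to 6 in treatment at d14 (6 without untreated d14 replicate 3) and 2 to 5 in the difference of the treatment effects, and the cause was not tested. In the same order, these fits called 810 to 1377, 281 to 1528, 1172 to 2851 and 1315 to 2598 of all genes. With untreated d10 replicates 1 to 3 alone the count was 2 in untreated d14 against d10 and 2 in treatment at d10. These fits called 1969 of 17400 and 1152 of 16963 genes in all, against 1277 of 17659 and 3 of 17258 in the main fits. With replicates 4 and 5 alone the count was 2 in the difference of the treatment effects and 5 in untreated d10 against d6 (Cxcr2 and Cxcl2 gained, Clec4e lost). Those fits called 2466 of 19253 and 2794 of 16736 genes, against 2196 of 18574 and 1257 of 16866. With treated d14 replicate 2 alone, an alternative chosen after seeing the data that leaves 1 treated d14 sample, the counts were 0 in treatment at d14 and 1 in the difference of the effects. Replicate numbers do not pair the samples: over 30 same-numbered pairs the correlation of deviations from the group means was -0.265 to 0.141, with 3 pairs over 0.1. A fit with the replicate number as a replicate block gave 2 called genes in untreated d14 against d10 and 2 in treatment at d10, and the same count as without it elsewhere. Over all genes it called 1589 of 17659 in untreated d14 against d10 and 1210 of 17258 in treatment at d10. The block leaves untreated d10 replicates 4 and 5 with no partner, so it rests on replicates 1 to 3. The estimates that changed sign under the replicate block were, in untreated d10 against d6 S100a8 0.19, S100a9 0.17 and Lcn2 -0.22, in untreated d14 against d6 S100a8 0.15 and S100a9 0.27, in treatment at d10 Clec4e -0.29 and Lcn2 0.22, in treatment at d14 Cxcl2 0.06, in the difference of the treatment effects Lcn2 -0.11. The estimates that changed sign with untreated d10 replicates 1 to 3 alone were, in untreated d10 against d6 S100a8 0.24, S100a9 0.26 and Lcn2 -0.22, in untreated d14 against d10 S100a9 -0.26, in treatment at d10 Clec4e -0.30 and Lcn2 0.21, in the difference of the treatment effects Lcn2 -0.13. The estimates that changed sign with untreated d10 replicates 4 and 5 alone were, in untreated d14 against d10 S100a8 0.66, Cxcr2 0.54, Clec4d 0.23, Clec4e 0.16 and Cxcl1 0.52, in treatment at d10 Clec4d 0.61 and Cxcl1 0.24, in the difference of the treatment effects S100a8 -0.38, S100a9 -0.22 and Cxcl1 -0.21. The estimates that changed sign with treated d14 replicate 2 alone were, in treatment at d14 Cxcl1 -0.40 and Lcn2 -0.11, in treated d14 against d10 Retnlg -0.13, Cxcl1 -0.15 and Cxcl2 -0.01, in the difference of the treatment effects Lcn2 -0.11. Leaving out each library in turn gave these ranges for genes whose estimate changed sign: in untreated d10 against d6 Lcn2 -0.14 to 0.20, S100a8 -0.76 to 0.77 and S100a9 -0.69 to 0.77, in untreated d14 against d10 S100a8 -0.48 to 0.60, S100a9 -0.20 to 0.67 and Cxcl1 -0.43 to 0.10, in untreated d14 against d6 Cxcl2 -0.17 to 0.51, S100a8 -0.60 to 0.72 and S100a9 -0.46 to 0.80, in treatment at d10 Clec4d -0.31 to 0.19, Clec4e -0.10 to 0.23, Lcn2 -0.16 to 0.12, S100a8 -0.15 to 0.99 and S100a9 -0.18 to 1.04, in treatment at d14 Lcn2 -0.11 to 0.32, Cxcl1 -0.17 to 0.25 and Cxcl2 -0.31 to 0.31, in treated d14 against d10 Retnlg -0.12 to 0.16, in the difference of the treatment effects S100a8 -0.34 to 0.80, S100a9 -0.26 to 0.95 and Lcn2 -0.09 to 0.34. Lcn2 in untreated d10 against d6 was -0.01 with protein coding genes alone and 0.00 with all groups in a fit, S100a8 in untreated d14 against d10 was 0.02 without TMM, and S100a9 in untreated d14 against d6 was 0.08 without TMM, 0.04 with no filter and 0.00 with at least 10 counts or protein coding genes alone. Levels of S100a8 and S100a9 spanned 8.66 and 8.03 times over the 17 libraries, and with 3 to 5 tumors a group their standard errors reached 0.65 and 0.62 in untreated d10 against d6.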

Other observations

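Of the genes most like each of the 10 in log2 CPM over the 17 libraries, those for Csf3r, Clec4d, Clec4e and Cxcl2 were looked up after the values were seen. The closest to Csf3r was Rassf2 (r = 0.96), an adaptor of the Ras pathway. The closest to Clec4e was Igsf6 (r = 0.96), an immunoglobulin family gene of myeloid cells, and the closest to Clec4d was Wnk2, a kinase (r = 0.97). The closest to Cxcl2 was Nop56 (r = 0.85), a ribosome biogenesis factor, and Slfn4 of the mature neutrophil list was the fourth (r = 0.81).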
